A study of Mus musculus with 11 samples.

Results

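The 8 phospholipid and sterol efflux transporter genes, whose proteins move these lipids out of liver cells or between their membranes, were examined in livers of mice with diet-induced steatohepatitis given vehicle or INT-767. They were chosen by symbol and function from the 46603 genes of the count table, and all 8 were found: the canalicular pumps *Abcb4*, *Abcg5*, *Abcg8* and *Abcg2*, the phospholipid flippase *Atp8b1*, the phosphatidylcholine transfer protein *Pctp*, and the cellular sterol efflux pumps *Abca1* and *Abcg1*. Bulk polyA RNA of terminal liver samples was sequenced from 11 male *ob/ob* mice of the strain B6.V-Lep ob/JRj, 7 given vehicle (carboxymethyl cellulose) and 4 given INT-767 at 10 mg/kg. Every mouse, controls included, lacked leptin, was 5 to 6 weeks old when the AMLN diet (rich in trans-fat, fructose and cholesterol) began, ate it for 15 weeks before dosing and throughout it, had a baseline liver biopsy, and was gavaged once daily for 8 weeks. The nuclear receptor FXR and the membrane receptor TGR5 are both activated by INT-767, a drug made from a bile acid. Total counts per mouse were between 7966963 and 15295230 with vehicle (median 10878327) and between 7381211 and 16022459 with INT-767 (median 12034846.5). The mice are separate animals, and the *p*-values below measure the spread between them. The hepatocyte marker *Alb* (albumin) was abundant in every liver, at 43057 ± 4297 CPM (counts scaled to a common library size) with vehicle (mean ± SD, n = 7) and 63913 ± 19494 with INT-767 (n = 4).

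Bile carries bile salts, phosphatidylcholine and cholesterol out of the hepatocyte across its canalicular membrane. ABCB4 flops phosphatidylcholine to the outer leaflet of that membrane, ABCG5 and ABCG8 work as an obligate pair that secretes cholesterol and plant sterols, and ATP8B1, which needs a CDC50 partner, returns aminophospholipid to the inner leaflet. On the blood side, ABCA1 loads phospholipid and cholesterol onto apolipoprotein A-I, and ABCG1 adds cholesterol to HDL particles. *Abca1*, *Abcg1*, *Abcg5* and *Abcg8* are classic targets of the oxysterol receptor LXR, while *Abcb11*, *Nr0b2* and *Slc51b* are classic targets of FXR.

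*Abcg5* and *Abcg8* lie head to head on chromosome 17, and the sequence between their RefSeq start sites is shown because the 2 genes face away from each other across it. The 109 bases, chr17:84683012-84683120 of GRCm38.p6 on the strand of *Abcg8*, hold 2 GATA motifs (AGATAA) and 1 TATA box (TATAAA), both searched on either strand, neither overlapping the other and all 3 matches on the strand of *Abcg5*. The capitals mark them, printed as the reverse complements TTATCT and TTTATA. RefSeq gives *Abcg8* a second start at base 84676302, inside *Abcg5*, and the 109 bases lie before the other one. Among the 109 bases before each of 32851 mouse start sites, 3.98% of windows held the GATA motif and 5.9% the TATA box.
Abcg5 and Abcg8, between the start sites: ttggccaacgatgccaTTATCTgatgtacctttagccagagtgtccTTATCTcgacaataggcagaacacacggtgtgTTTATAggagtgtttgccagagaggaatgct
The 250 bases before the start of *Abca1*, chr4:53159896-53160145 on the minus strand, are shown for their direct repeat, the form of site that LXR binds with its partner RXR. The repeat (2 copies of GGTNA in one direction with 5 bases between, on either strand) is in capitals, 67 to 53 bases before the start, and 0.621% of 250-base windows held one.
Abca1, before the start site: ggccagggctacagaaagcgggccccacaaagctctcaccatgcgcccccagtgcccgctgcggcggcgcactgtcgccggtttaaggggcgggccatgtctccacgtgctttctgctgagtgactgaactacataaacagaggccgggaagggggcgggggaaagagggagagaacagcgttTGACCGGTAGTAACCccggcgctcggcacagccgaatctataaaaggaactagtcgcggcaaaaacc
Windows of 6 of the 8 genes were searched, none of *Atp8b1* or *Abcg1*. No window of these 6 genes held the inverted repeat of classic FXR sites (GGTCA and TGACC with 1 base between), which was in 0.0335% of all windows. The single nuclear receptor site AGGTCA, which can lie inside either repeat and was in 14% of windows, was found upstream of *Abcg2* alone among them. A match describes the letters only.

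In vehicle livers *Abcb4* and *Abcg5* stood highest and *Abcg1* lowest. Per kilobase of the longest transcript, the level was 79.3 ± 21.9 CPM for *Abcb4*, 78.2 ± 15.6 for *Abcg5*, 42.6 ± 4.00 for *Pctp*, 36.6 ± 10.6 for *Abcg8*, 30.6 ± 3.66 for *Abca1*, 19.5 ± 1.81 for *Abcg2*, 7.24 ± 1.48 for *Atp8b1* and 4.38 ± 1.15 for *Abcg1* (SD, n = 7). The ranges over mice of *Abcb4* and *Abcg5* overlapped, and so did those of *Pctp* and *Abcg8*, of *Abcg8* and *Abca1*, and of *Atp8b1* and *Abcg1*. *Abcg5* was above *Pctp*, *Abca1* above *Abcg2* and *Abcg2* above *Atp8b1* in 7 of 7 mice with no overlap of ranges. The order rests on the length chosen, since over all exon bases of the gene *Abcb4* fell to place 4, at 34.5 CPM per kilobase.

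By edgeR's quasi-likelihood test over 13880 genes, 1 of the 8 genes was higher in INT-767 livers, *Atp8b1*, and 1 was lower, *Pctp*, at an adjusted *p* under 0.05. The other 6 were not called. Of all genes tested, 5.04% were called higher, 4.68% lower and 9.72% in either direction. These shares stand for 700 genes higher and 649 lower and moved with single libraries, to 1906 and 1370 genes without vehicle mouse 1 and to 164 and 110 without INT-767 mouse 2. With scaling by library size only, 331 genes were higher and 1026 lower. The log2 fold change was below 0 for 7 of the 8 genes with a median of -0.26, beside -0.01 for all genes tested. With scaling by library size only, the median of all genes was -0.22, and the values of the 8 genes were lower too. *Abcb4* was then at -0.50, *Abcg5* at -0.36, *Abcg8* at -0.56 and *Atp8b1* at 0.49. At the same scaling *Abcg2* was at -0.26, *Abca1* at -0.41, *Abcg1* at -1.10 and *Pctp* at -0.88. The levels of the groups did not overlap for the same 2 genes, *Atp8b1* and *Pctp*. Of all genes tested, 3.87% were apart in this way with INT-767 higher, 3.65% with it lower and 7.51% in either direction.

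**Figure D1:**
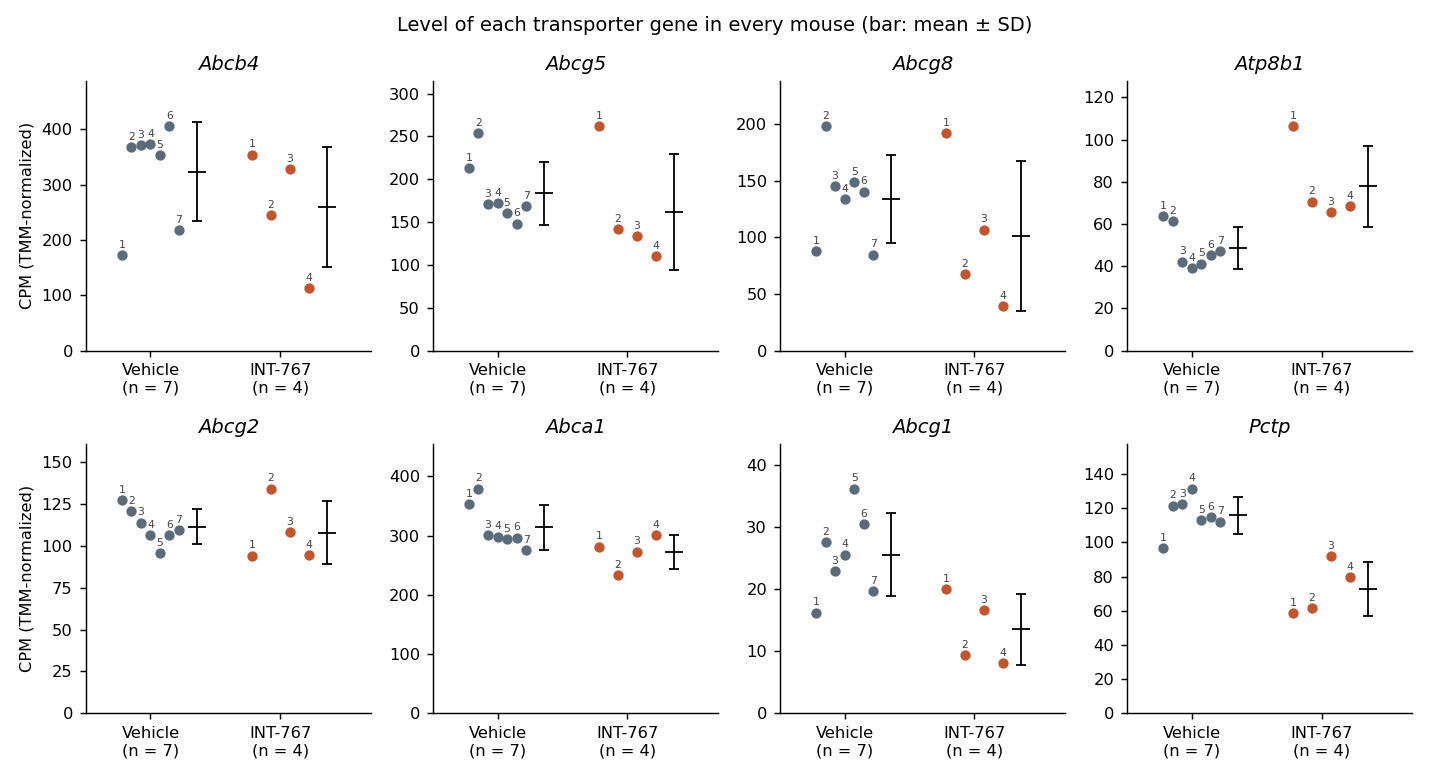
TMM-normalized level (CPM) of each gene in every mouse, on a linear axis from 0, with mouse numbers beside the points and mean ± SD bars for 7 vehicle and 4 INT-767 livers. Only in *Atp8b1* and *Pctp* are the groups apart, and in *Abcg8* the 4 INT-767 livers spread from 39.6 to 192 CPM.

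*Abcb4* encodes the phosphatidylcholine floppase without which bile holds almost no phospholipid (chr5:8893717-8959231 of GRCm38, plus strand, 28 exons). Its level was 173 CPM in the lowest vehicle mouse, 367 at the median and 406 in the highest, and 354, 245, 329 and 113 CPM in INT-767 mice 1 to 4. INT-767 mouse 4 was below every vehicle mouse, and the other INT-767 mice lay inside the vehicle range. The mean was 323 ± 89.5 CPM with vehicle and 260.1 ± 108.9 with INT-767. The log2 fold change of -0.31 had an SE of 0.31 and a 95% confidence interval from -0.99 to 0.36 (edgeR adjusted *p* = 0.478). Without INT-767 mouse 1 it was -0.50 and without INT-767 mouse 4 it was -0.07. The interval holds losses as well as gains.

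*Abcg5* (chr17:84658234-84683011, minus strand, 13 exons) and *Abcg8* (chr17:84676302-84700333, plus strand, 13 exons) encode the 2 subunits of the sterol pump. *Abcg5* ran from 148 CPM through a median of 171 to 254 in vehicle mice and was 262, 142, 133 and 110.4 CPM in INT-767 mice 1 to 4. INT-767 mouse 1 was above every vehicle mouse and the other 3 were below every one. *Abcg8* ran from 84.7 CPM through 140.2 to 198 with vehicle and was 192, 67.4, 107 and 39.6 CPM with INT-767. Mice 2 and 4 were below the vehicle range and mouse 1 was near its top. The log2 fold changes were -0.18 for *Abcg5* (SE 0.23, 95% confidence interval -0.69 to 0.32, edgeR adjusted *p* = 0.587) and -0.40 for *Abcg8* (SE 0.37, interval -1.19 to 0.39, edgeR adjusted *p* = 0.437). Single INT-767 mice moved both in either direction. Without mouse 1 they were -0.51 and -0.91 (edgeR adjusted *p* = 0.0799 and 0.0745), and without mouse 4 they were -0.04 and -0.14 (edgeR adjusted *p* = 0.929 and 0.815). The authors' strand setting for counting is not given in the sources used here, and 3.02% of *Abcg5* and 2.19% of *Abcg8* exon bases overlap the other gene on the opposite strand.

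The coefficient of variation was 27.7% with vehicle and 41.9% with INT-767 for *Abcb4*, 19.9% and 42.1% for *Abcg5*, and 29.0% and 65.3% for *Abcg8*, values given as a description of 7 and 4 mice with no test. The 3 INT-767 mice other than mouse 1 held *Abcg5* between 110.4 and 142 CPM, and the 3 other than mouse 4 held *Abcb4* between 245 and 354 CPM. *Abcg8* ran from 39.6 to 107 CPM among the INT-767 mice without mouse 1 and from 67.4 to 192 CPM without mouse 4. Ranges over 3 mice tend to be narrower than over 7, so these are not set against the vehicle ranges. *Abcb4* and *Abcg8* were lowest in vehicle mice 1 and 7 and in INT-767 mice 2 and 4. In those same 4 libraries, and in none of the others, a gene's deviation from its mean over the 11 mice fell with both GC content (Spearman's rho across 13835 genes -0.42, -0.12, -0.26 and -0.24) and transcript length (rho -0.18, -0.23, -0.30 and -0.31). Genes are not independent replicates, and the part of this trend in the spread of the 2 pumps was not tested. In a fit with an offset for both trends the log2 fold change was -0.14 for *Abcb4* and -0.23 for *Abcg8*.

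*Abcg2* encodes a canalicular exporter of sulfated steroids, urate and drugs (chr6:58584523-58695676, plus strand, 16 exons). It ran from 95.6 CPM through 109 to 127 in vehicle mice and was 94.1, 134, 108 and 94.6 CPM in the INT-767 mice, with 2 just below and 1 above the vehicle range. Its log2 fold change was the nearest to 0 of the 8, at -0.05 (SE 0.14, 95% confidence interval -0.35 to 0.25, edgeR adjusted *p* = 0.812). Its sign turned in fits without INT-767 mouse 1 (0.015) or mouse 4 (0.00050). It was -0.26 with library size only and -0.26 under the offset for GC content and length. Under that offset *Abcb4* (-0.14) was nearer to 0.

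*Atp8b1* encodes the canalicular flippase whose loss causes a familial cholestasis (chr18:64528967-64661267, minus strand, 28 exons). Vehicle mice held 39.2 CPM at the lowest, 45.3 at the median and 63.8 at the highest, and INT-767 mice 1 to 4 held 106, 70.6, 65.6 and 68.4 CPM. All 4 INT-767 mice were above all 7 vehicle mice, the nearest by less than 2 CPM, and mouse 1 stood apart from the other 3. The mean rose from 48.6 ± 9.92 to 77.8 ± 19.2 CPM, 1.60-fold, a log2 fold change of 0.68 (SE 0.18, 95% confidence interval 0.28 to 1.08, edgeR adjusted *p* = 0.0384). The exact Mann-Whitney test (two-sided) returned *p* = 0.00606, the smallest that 4 against 7 mice allow, and 0.0807 when adjusted over all genes. The direction held without any 1 mouse, but the call was lost in 7 of the 11 such fits: without vehicle mouse 3, 4, 5, 6 or 7 (edgeR adjusted *p* = 0.0727, 0.0803, 0.0811, 0.0807 and 0.0550) and without INT-767 mouse 1 or 2 (0.0736 and 0.104). Over all 11 fits the log2 fold change was between 0.49 and 0.76. With all mice the call was also lost with library size only (edgeR adjusted *p* = 0.102), upper-quartile factors (0.0564), no filter beyond 1 count (0.0616) and a minimum of 10 counts in every mouse (0.0503).

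*Pctp* encodes a soluble protein that shuttles phosphatidylcholine between membranes (chr11:89982665-90002894, minus strand, 6 exons). It ran from 96.5 CPM through 115 to 131 in vehicle mice and was 58.8, 61.4, 91.8 and 79.6 CPM in INT-767 mice 1 to 4. All 4 were below all 7 vehicle mice, mice 1 and 2 the farthest. The mean fell from 116 ± 10.9 to 72.9 ± 15.6 CPM, to 0.629 of the vehicle level (log2 fold change -0.67, SE 0.15, 95% confidence interval -1.003 to -0.34, edgeR adjusted *p* = 0.0218, exact Mann-Whitney *p* = 0.00606). Adjusted over all genes, the Mann-Whitney *p* was 0.0807. The call held in 10 of the 11 fits that left out 1 mouse, and without INT-767 mouse 2 the adjusted *p* was 0.0943 (log2 fold change -0.61).

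*Abca1*, the pump that forms nascent HDL, was not called (chr4:53030787-53159895, minus strand, 50 exons). Vehicle mice ran from 275 CPM through 298 to 379, and INT-767 mice 1 to 4 held 282, 234, 273 and 301 CPM. Mouse 2 was clearly below the vehicle range and mouse 3 just below it. The mean was 314 ± 37.5 CPM with vehicle and 272 ± 28.2 with INT-767. The log2 fold change was -0.21 (SE 0.14, 95% confidence interval -0.51 to 0.09, edgeR adjusted *p* = 0.2996), and the sign turned to 0.26 under the offset for GC content and length.

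*Abcg1*, which passes cholesterol to HDL and is abundant in macrophages and endothelium, had the lowest fold change of the 8 (chr17:31057675-31117988, plus strand, 15 exons). It ran from 16.2 CPM through 25.6 to 36.2 in vehicle mice and was 20.02, 9.40, 16.6 and 8.09 CPM in INT-767 mice 1 to 4. Mice 2 and 4 were below the vehicle range, while mice 1 and 3 were at its lower end. In the vehicle group *Abcg1* was lowest in mice 1 and 7 (16.2 and 19.7 CPM). These 2 libraries and those of INT-767 mice 2 and 4 are the ones that fell with GC content and length. The part of that trend in the level of *Abcg1* was not tested. The mean was 25.5 ± 6.70 CPM with vehicle and 13.5 ± 5.72 with INT-767. Its log2 fold change of -0.91 (SE 0.28, 95% confidence interval -1.53 to -0.30) just missed the threshold (edgeR adjusted *p* = 0.0584). Without vehicle mouse 1 or INT-767 mouse 1 it was called lower, at -0.997 and -1.17 (edgeR adjusted *p* = 0.0269 and 0.0313). In the other 9 fits without 1 mouse it was not called, and it was nearest to 0 without INT-767 mouse 2 or 4, at -0.78 and -0.73 (edgeR adjusted *p* = 0.205 and 0.139). DESeq2 called it (adjusted *p* = 0.0157) and limma-voom did not (adjusted *p* = 0.0515). Under the offset for GC content and length it was called at a smaller log2 fold change of -0.58 (edgeR adjusted *p* = 0.0303).

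Markers of the cell types rich in *Abcg1* are given beside it. Of 16 macrophage markers, 3 were called lower (*Cd68*, *Csf1r* and *Cd9*) and none higher, with a median log2 fold change of -0.59 and 15 below 0. Their summed level was 1069 to 1566 CPM in vehicle mice and 754, 771, 695 and 1650 CPM in INT-767 mice 1 to 4, and the most abundant, *Lyz2*, was 282 ± 106 CPM with vehicle and 214 ± 124 with INT-767. INT-767 mouse 4 had the lowest *Abcg1* and the highest macrophage sum of the 11 mice. In that mouse *Lyz2* was at 399.1 CPM, with the next INT-767 mouse at 171.3. Of 9 sinusoidal endothelium markers none was called (median log2 fold change -0.19), and their sum was 210.5 to 433 CPM with vehicle and 273, 214, 245 and 195 CPM with INT-767, the most abundant being *Stab1* (65.4 ± 35.0 and 24.9 ± 11.8 CPM). No marker of either list was at 0 in all mice. Their part in the level of *Abcg1* was not tested, and in whole liver fewer cells of a type and less RNA per cell cannot be told apart.

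Of 11 hepatocyte markers found, of 12 listed, 1, *Ass1* (a urea cycle enzyme), was called higher and none lower, with a median log2 fold change of 0.24 and 3 markers below 0. Their summed level, most of it *Alb*, was 59650 to 79657 CPM in vehicle mice and 109392, 113543, 91056 and 75541 CPM in INT-767 mice 1 to 4, above every vehicle mouse in mice 1 to 3. *Alb* itself was not called (edgeR adjusted *p* = 0.0891). Of 8 cholangiocyte markers 1, *Cldn4*, was called lower (median log2 fold change -0.65, 8 of 8 below 0, most abundant *Cdh1*, summed level 97.9 to 164 and 58.0 to 122 CPM). Of 12 stellate cell and myofibroblast markers 3, *Pdgfrb*, *Col1a1* and *Col1a2*, were called lower (median -0.66, 9 of 12 below 0, most abundant *Dcn*, summed level 938 to 2105 and 789 to 1243 CPM). Of 6 red cell markers none was called (median 0.12, most abundant *Hbb-bs*, summed level 118 to 342 and 109.96 to 404 CPM). The part of these markers in the levels of the 8 genes was not tested.

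**Figure D2:**
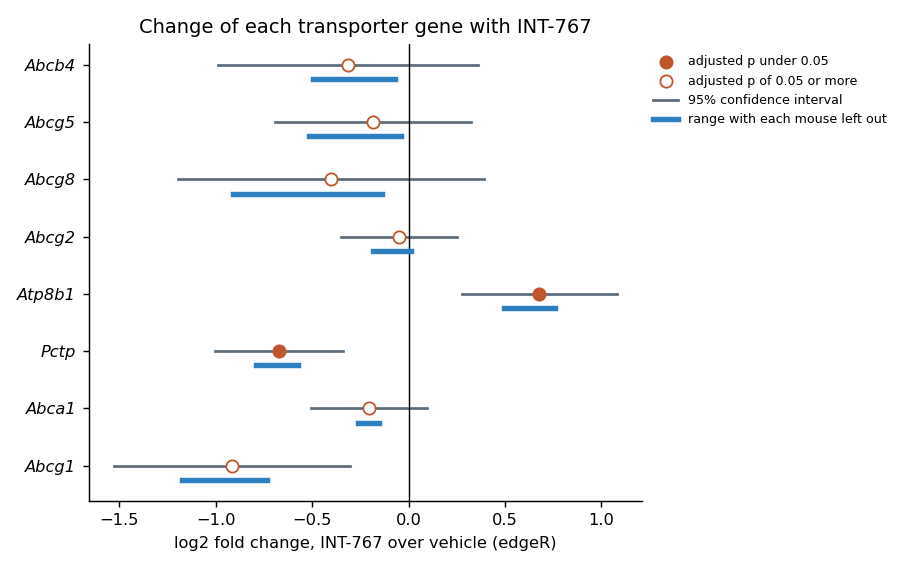
log2 fold change of INT-767 over vehicle for each gene (circles, filled where the edgeR adjusted *p* was under 0.05), with its 95% confidence interval (thin line) and the range of the value when each of the 11 mice was left out in turn (thick line). *Atp8b1* at 0.68 and *Pctp* at -0.67 are the filled points, and *Abcg1* lies lowest at -0.91 with an open point.

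The deviations of single mice differed among the 4 INT-767 libraries. Mouse 1 was above the vehicle mean by 0.53 in *Abcg5*, 0.57 in *Abcg8* and 1.15 in *Atp8b1* on the log2 scale. Mouse 4 was below it by the most of all 11 mice in *Abcb4* (-1.46), *Abcg5* (-0.71), *Abcg8* (-1.71) and *Abcg1* (-1.61), yet it held *Abca1* at -0.06. Its library fell with GC content and length, as did those of vehicle mice 1 and 7. Those vehicle mice were at -0.84 and -0.51 in *Abcb4*, -0.56 and -0.61 in *Abcg8*, and -0.61 and -0.33 in *Abcg1*. In *Abcg5* they were at 0.23 and -0.10. The part of the trend in these deviations was not tested. *Atp8b1* and *Pctp* were the genes in which the 4 mice shared a direction beyond the vehicle range.

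**Figure D3:**
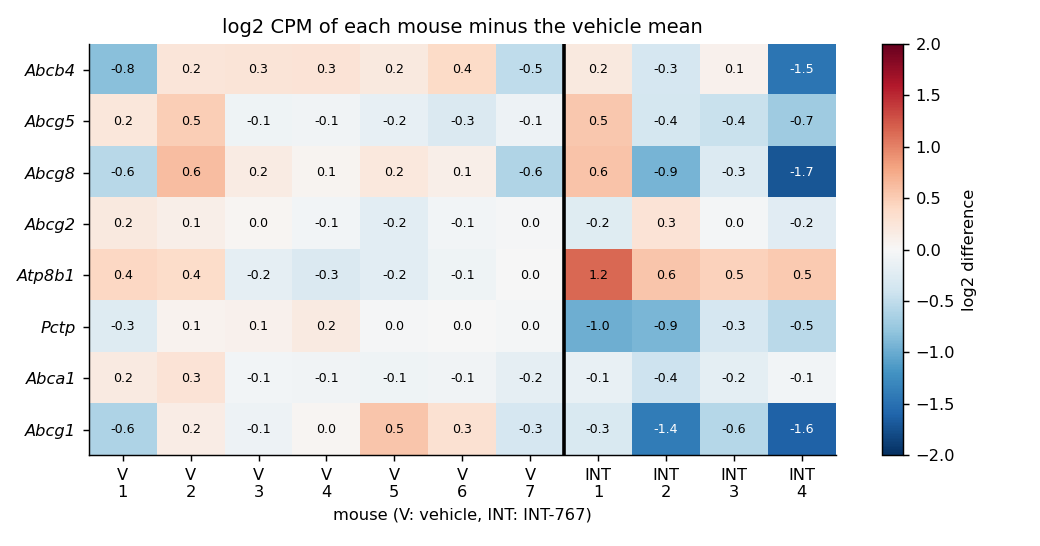
log2 CPM of each gene in each mouse minus the mean over the 7 vehicle mice, as colours from blue (lower) to red (higher) with the value printed in each cell, vehicle mice (V) left of the line and INT-767 mice (INT) right of it. INT-767 mouse 4 is darkest blue in *Abcg8* (-1.71) and *Abcg1* (-1.61), and INT-767 mouse 1 darkest red in *Atp8b1* (1.15).

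Ratios of 2 genes within a mouse need no scaling between libraries, and 4 were compared by an exact two-sided permutation test over all 330 assignments of the mice, with *p* adjusted over the 4. The log2 ratio of *Abcb4* to *Abcb11*, the bile salt export pump, was between -1.21 and 1.14 in vehicle mice (mean 0.34 ± 0.86) and -1.44, -2.20, -0.67 and -2.32 in INT-767 mice 1 to 4. Mice 1, 2 and 4 were below every vehicle mouse, while mouse 3 lay inside the vehicle range. The mean ratio was lower by 1.99 on the log2 scale (-1.99, exact *p* = 0.0121, adjusted *p* = 0.0485), 4 mice of 4 lying below the vehicle mean. Within the groups this ratio was lowest in vehicle mice 1 and 7 and in INT-767 mice 2 and 4, the libraries that fell with GC content and length. With those trends removed the difference was -1.95 (exact *p* = 0.0121, adjusted *p* = 0.0485). *Abcb11* itself was 184 to 401 CPM in vehicle mice and 961, 1125, 524 and 563 CPM in INT-767 mice. The call held in 1 of 11 fits without 1 mouse, that without vehicle mouse 1. Without any other vehicle mouse the adjusted *p* was 0.0762, and without an INT-767 mouse it was 0.0667 or 0.133, where 3 against 7 mice allow no unadjusted *p* under 0.0167.

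The ratio of *Abcb4* to *Atp8b1*, floppase to flippase, was lower by a log2 difference of -1.05 with INT-767 (2.70 ± 0.67 with vehicle, 1.64 ± 0.67 with INT-767, exact *p* = 0.0545, adjusted 0.0727), and 1 INT-767 mouse was below all vehicle mice. That of *Abca1* to *Abcg1* was higher by 0.77 (3.65 ± 0.45 and 4.42 ± 0.63, exact *p* = 0.0424, adjusted 0.0727), with 2 INT-767 mice above all vehicle mice. Within the groups *Abca1* to *Abcg1* was highest in vehicle mice 1 and 7 and in INT-767 mice 2 and 4. *Abcb4* to *Atp8b1* was lowest in vehicle mice 1 and 7 and in INT-767 mouse 4. Neither ratio passed the threshold after adjustment. With the GC content and length trends removed the differences were -1.14 for *Abcb4* to *Atp8b1* and 0.84 for *Abca1* to *Abcg1* (adjusted exact *p* = 0.0808 for each). Each passed in 1 of the 11 tests without 1 mouse, that without vehicle mouse 1 (-1.26 and 0.90, adjusted exact *p* = 0.0254 and 0.0190), and both were nearest to 0 without INT-767 mouse 4 (-0.75 and 0.50, adjusted exact *p* = 0.20 for each). For the subunits of the sterol pump the ratio differed by less than the spread between mice, *Abcg5* to *Abcg8* being 0.49 ± 0.46 with vehicle and 0.83 ± 0.54 with INT-767 (difference 0.34, exact *p* = 0.255). It ranged from 0.08 to 1.28 among vehicle mice and from 0.32 to 1.48 among INT-767 mice, highest in vehicle mice 1 and 7 and INT-767 mice 2 and 4, the libraries that fell with GC content and length. With those trends removed the difference was 0.17.

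**Figure D4:**
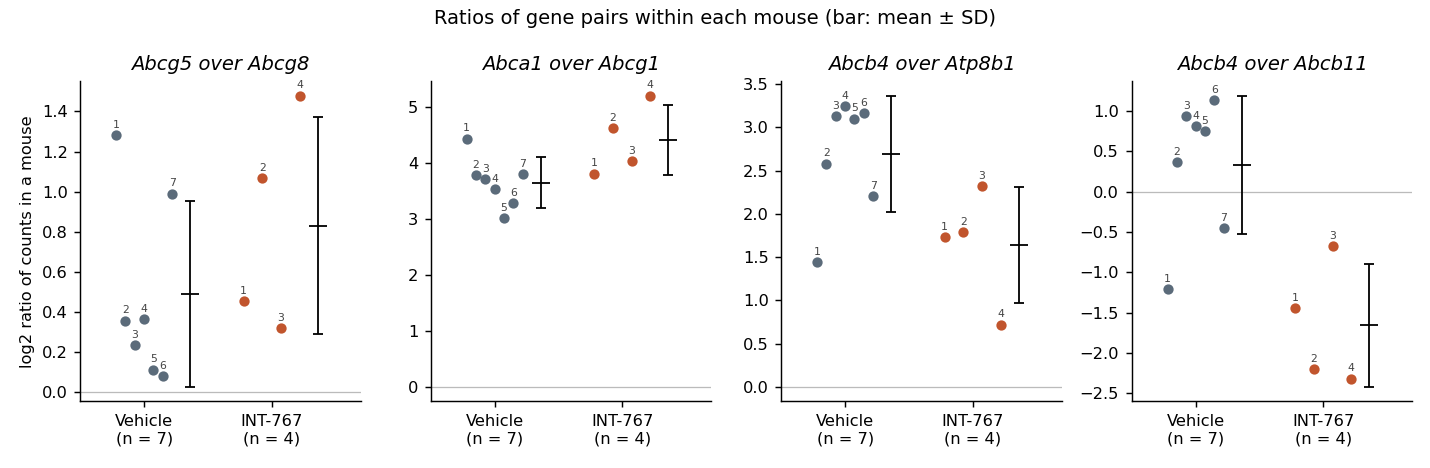
log2 ratio of the counts of 2 genes within each mouse (not corrected for transcript length), with mouse numbers and mean ± SD bars for 7 vehicle and 4 INT-767 livers. *Abcb4* over *Abcb11* falls from a mean of 0.34 to -1.66, while *Abcg5* over *Abcg8* overlaps widely between the groups.

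Among the 7 vehicle mice alone, the same pairs were correlated on log2 CPM. *Abcb4* and *Abcb11* ran opposite, with Pearson's *r* = -0.89 (exact permutation *p* = 0.00317, adjusted over 4 pairs 0.0127) and Spearman's rho = -0.82 (exact *p* = 0.0341, adjusted 0.137). Without the 2 mice farthest from the median of *Abcb4*, *r* was -0.46, so that the relation rests on those mice, and after removal of the GC content and length trends *r* was -0.87 (adjusted exact *p* = 0.0556) and rho -0.64 (adjusted exact *p* = 0.533). Without the 2 farthest mice that *r* was 0.15, of the opposite sign. *Abcg5* and *Abcg8* gave *r* = 0.21 and rho = 0.11 (exact *p* = 0.706 and 0.840), *Abca1* and *Abcg1* -0.19 and -0.21 (exact *p* = 0.692 and 0.662), and *Abcb4* and *Atp8b1* -0.56 and -0.57 (exact *p* = 0.119 and 0.20). Without 2 mice these were -0.27, 0.51 and 0.02, and none of the 3 passed the threshold (adjusted *p* for *r* 0.706, 0.706 and 0.238, for rho 0.840, 0.840 and 0.400).

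Related genes were counted from lists chosen with earlier results of these data known. Of 11 other canalicular and basolateral ABC pumps, 2 were called higher and none lower: *Abcb11* (log2 fold change 1.64 ± 0.26 SE, edgeR adjusted *p* = 0.00471) and *Abcb1a*, a drug exporter (1.32 ± 0.22, edgeR adjusted *p* = 0.00528). *Abcc2*, the canalicular exporter of bilirubin conjugates, was at -0.74 ± 0.36 (edgeR adjusted *p* = 0.165). Of 9 tested relatives in the ABCA and ABCG families, 2 rose, *Abca8a* (0.92) and *Abca6* (0.82), and *Abcg3* fell (-0.85). Of 13 flippases and CDC50 proteins beside *Atp8b1*, none rose and *Atp11a*, a plasma membrane flippase, fell (-0.99). *Tmem30a*, the CDC50 partner of *Atp8b1*, had a log2 fold change of 0.91 ± 0.40 that was not called (edgeR adjusted *p* = 0.135). It was highest in vehicle mice 1 and 7 (410 and 253 CPM) and in INT-767 mice 2 and 4 (398 and 651 CPM). Those are the libraries that fell with GC content and length. The medians of these 3 lists were -0.06, -0.15 and -0.22.

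Among the other lipid transfer proteins, the class to which *Pctp* belongs, 5 of 28 tested rose and 1 fell, with a median of 0.04. *Gramd1c* and *Stard4*, which carry sterol between membranes, rose by 1.19 and 0.75, *Pitpnb*, a phosphatidylinositol transfer protein, by 0.58, and *Stard10*, which like *Pctp* binds phosphatidylcholine, by 0.61, while *Gltp*, the glycolipid transfer protein, was at -1.08. *Osbpl2* (0.44) was the fifth that rose, named after its values were seen.

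Of 19 genes listed for the synthesis and remodelling of phosphatidylcholine, the lipid ABCB4 exports, 18 were found and tested, and 7 were called higher and 1 lower beside 5.04% and 4.68% of all genes, with a median log2 fold change of 0.39. *Pemt*, which methylates phosphatidylethanolamine to phosphatidylcholine, was 170.0 to 300.4 CPM in vehicle mice and 329, 544, 358 and 411 CPM in INT-767 mice 1 to 4, with no overlap (log2 fold change 0.81 ± 0.19, edgeR adjusted *p* = 0.0218). It was the 1 gene called higher whose product makes phosphatidylcholine itself. *Gnmt* and *Ahcy*, methyl cycle enzymes that handle the methyl donor and its product, rose by 1.24 and 1.19. *Etnk1*, an ethanolamine kinase of phosphatidylethanolamine synthesis, rose by 0.49. *Etnk2* and *Pcyt2* of the same route and *Mat1a*, which makes the methyl donor, were called higher too (1.18, 0.76 and 0.60) and were named after their values were seen. The CDP-choline route genes *Pcyt1a*, *Chka*, *Chkb*, *Chpt1* and *Cept1*, named likewise, were not called (0.30, 0.64, -0.35, 0.14 and 0.52). *Pcyt1b*, the minor form of an enzyme that makes CDP-choline, fell by 1.83 from a level of about 1 CPM.

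HDL and cholesterol ester genes had 3 of 19 called higher and 1 lower (median 0.21). *Scarb1*, the HDL receptor, rose by 0.83, *Lipc*, hepatic lipase, by 1.58 and *Soat2*, the cholesterol esterifying enzyme of hepatocytes, by 0.91, while *Soat1*, its relative in other cells, was at -0.82. *Apoa1*, the acceptor of ABCA1 lipid, had a log2 fold change of 0.52 that was not called (edgeR adjusted *p* = 0.0746).

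Receptors and their classic targets were counted last. Of the FXR targets, *Slc51b*, a basolateral bile acid exporter subunit, rose by 3.43, *Abcb11* by 1.64 and *Nr0b2*, a corepressor, by 1.54, and *Cyp8b1*, the sterol 12-hydroxylase, was at -4.60. *Abcb4*, also counted among FXR targets, was not called (-0.31). Of the LXR targets beside the members, *Mylip*, which degrades the LDL receptor, was at -0.61 (edgeR adjusted *p* = 0.0739) and *Srebf1*, the regulator of fatty acid synthesis, at 0.17, neither called. *Lpcat3*, another of them and named after its values were seen, was not called either (-0.26, edgeR adjusted *p* = 0.256). The LXR genes *Nr1h3* and *Nr1h2* were at 0.39 (edgeR adjusted *p* = 0.0673) and -0.06, and the FXR gene *Nr1h4* at -0.25. In all, 3 of the 20 tested genes of this list, which holds 5 of the 8 members, were called higher and 1 lower, with a median of -0.12.

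**Figure D5:**
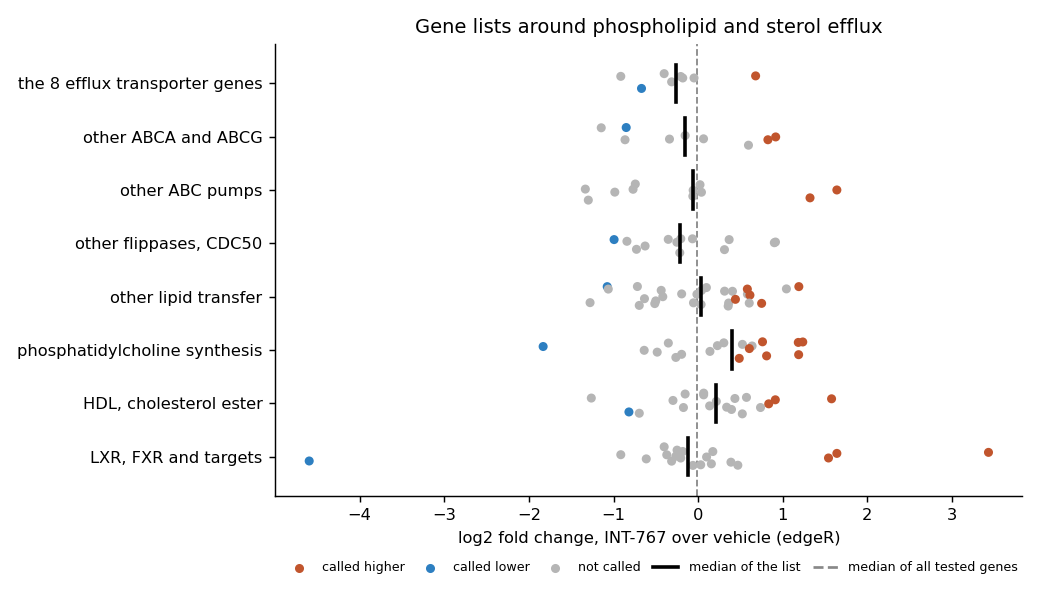
log2 fold change (edgeR) of every tested gene of the 8 transporters and of 7 related lists, coloured by call, with the median of each list (black) and of all 13880 tested genes (dashed, -0.01). The transporters lie between -0.91 and 0.68, and phosphatidylcholine synthesis has the highest median (0.39).

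The genes whose log2 CPM was most like that of each transporter over the 11 mice are given as a description, since both groups and the trends of single libraries enter. They were *Sik2* and *Scaf8* for *Abcb4* (Pearson's *r* 0.99 and 0.99), *Ttc39b* and *Gjb2* for *Abcg5* (0.89 and 0.87), *Ptpn3* and *Phf3* for *Abcg8* (0.97 and 0.97), and *2610001J05Rik* and *Scp2-ps2* for *Abcg2* (0.89 and 0.84). For *Atp8b1* they were *St13* and *Etnk1* (0.97 and 0.96), for *Pctp* *Cd276* and *Bhlhb9* (0.97 and 0.97), for *Abca1* *Kif3b* and *Gla* (0.88 and 0.87), and for *Abcg1* *Scamp2* and *Mre11a* (0.99 and 0.98). Of these, *Etnk1*, *Cd276* and *Bhlhb9* were themselves called.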

How the data were processed

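The authors prepared stranded polyA libraries from 11 livers and aligned the reads to GRCm38 with STAR (version 2.4.0 per the submitters' processing notes). The paper's supplementary methods name a different version of STAR. They deposited read counts per gene, not normalized, for 46603 genes. The sources used here give neither the counting program nor its strand setting, and no batch of library preparation or sequencing.

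Counts were scaled by TMM factors in edgeR 4.0.16 (R 4.3.3), genes were kept by filterByExpr (minimum count 10, minimum total 15), and 13880 entered its quasi-likelihood test (glmQLFTest after a robust glmQLFit) on treatment alone. The Benjamini-Hochberg adjustment ran over all of these genes, and calls were made under 0.05. CPM are relative to the TMM-scaled library size of the kept genes. Ratios used counts plus 0.5 and an exact two-sided permutation test (scipy 1.17.1). Coordinates and lengths came from GENCODE M21 on GRCm38, start site sequences from RefSeq (GRCm38.p6). Of the transcript windows of 75 bases, 1.49% of those of *Abcb4*, 0.325% of *Abcg5*, 0.236% of *Abcg8* and none of the other 5 genes were shared with another gene. No library was a copy of another.

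The members, the lists and the tests were chosen with earlier results of these data known. The genes named were the 8 members, up to 4 called genes with the smallest *p* of each related list, 13 genes kept whatever their value (such as *Tmem30a*, *Pemt* and *Nr1h3*), the most abundant gene of each marker list, and for each member the 2 genes most alike over the mice. Other genes (*Osbpl2*, *Etnk2*, *Pcyt2*, *Mat1a*, *Lpcat3*, the CDP-choline route genes and the called markers) were named after their values were seen. Alternatives were RLE, upper-quartile and no scaling factors, other filters, a replicate block, leaving out each mouse, limma-voom (limma 3.58.1), DESeq2 1.42.0, a threshold of 0.01, a pseudocount of 2, and an offset removing library trends with GC content and transcript length (lowess, span 0.3). For ratios, the trend removal was chosen after seeing the data. edgeR was tested on simulated data. Figures were drawn with matplotlib 3.10.9.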

Additional observations from a re-analysis of the deposited data

Results flagged for a closer look

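In 128 groups of 4 or 7 mice, 8 held a mouse far from the others (Dixon's test at 95%), and chance alone marks about 1 in 20 groups. Among the transporters it was *Atp8b1* with INT-767, where mouse 1 was at 106.4 CPM and the next at 70.62. Among related genes, *Pitpnb* was highest in vehicle mouse 2 (49.63 CPM) and in INT-767 mouse 1 (70.47 CPM), *Lipc* in vehicle mouse 1 (87.75 CPM) and *Scarb1* in INT-767 mouse 2 (385 CPM, next 243.1). *Abcg3* was lowest in vehicle mouse 3 (6.134 CPM). *Lyz2*, a macrophage marker, was highest in INT-767 mouse 4 (399.1 CPM, next 171.3), the mouse with the lowest *Abcg1*, *Abcg8*, *Abcg5* and *Abcb4*. *2610001J05Rik*, most like *Abcg2*, was highest in INT-767 mouse 2 (28.05 CPM).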

How the results depend on the processing

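With 4 and 7 mice and 1 measurement each, the fold changes kept their direction for *Abcb4*, *Abcg5*, *Abcg8*, *Atp8b1*, *Abcg1* and *Pctp* in all 22 alternative fits. The call of *Atp8b1* was lost with library size only (0.49, adjusted *p* = 0.102), upper-quartile factors (0.60, 0.0564), no filter beyond 1 count (0.69, 0.0616) and at least 10 counts in every mouse (0.61, 0.0503). With each of these settings 0 of the 8 genes were called higher. *Abcg1* was called lower, making 2 of the 8, with library size only (-1.10), the GC content and length offset (-0.58), limma-voom with sample weights (-0.91) and DESeq2 (-0.91), adjusted *p* between 0.0157 and 0.0486. *Abcg2* reversed with limma-voom with sample weights (0.015) and in the fits without INT-767 mouse 1 (0.015) or 4 (0.00050), and *Abca1* with the offset (0.26). At a threshold of 0.01 no member was called, and 158 genes were called higher and 87 lower.

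Of all genes, 331 were called higher and 1026 lower with library size only, and 467 higher and 812 lower with upper-quartile factors. With the offset 1082 were called higher and 808 lower. Limma-voom with sample weights called 1658 higher and 1221 lower, and DESeq2 1443 higher and 1368 lower. The cause was not tested.

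Leaving out each mouse in turn gave 0 to 1 members called higher and 0 to 2 lower, 164 to 1906 genes called higher and 110 to 1370 lower. The log2 fold changes ranged from 0.49 to 0.76 for *Atp8b1*, from -0.79 to -0.58 for *Pctp*, from -1.17 to -0.73 for *Abcg1* and from -0.18 to 0.015 for *Abcg2*. The ratio of *Abcb4* to *Abcb11* ranged from -2.32 to -1.77, that of *Abcb4* to *Atp8b1* from -1.28 to -0.75 and that of *Abca1* to *Abcg1* from 0.50 to 0.97.

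The deviations of same-numbered mice correlated with *r* of -0.69, 0.215, 0.148 and -0.482, and none correlated best with its own number. The library trends with GC content and length enter these values, so they cannot exclude a pairing or batch by number. With the replicate block edgeR called no gene, 0 higher and 0 lower (565 and 782 at an unadjusted *p* under 0.05), *Atp8b1* being at 0.60 and *Pctp* at -0.71 (adjusted *p* = 0.474 and 0.397). With the block and the offset 0 genes were called again (794 and 887 unadjusted), with *Atp8b1* at 0.85, *Pctp* at -0.67 and *Abca1* at 0.12. Vehicle mice 5, 6 and 7 share no number with an INT-767 mouse, so they add nothing to the blocked treatment contrast. The block left few mice for that contrast, and no conclusion is drawn from the absence of calls.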
